A study of Mus musculus with 2 samples.

Results

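Proteasome subunit genes were taken as every gene of the count table whose symbol starts with Psma, Psmb, Psmc, Psmd, Psme, Psmf or Psmg and carries no pseudogene suffix, which gave 50 of 27998 genes. The cells came from mouse MLL-AF9 acute myeloid leukemia, made by retroviral (RV) expression of the fusion oncogene MLL-AF9 in lineage-depleted bone marrow and grown in lethally irradiated recipients. Donor mice were Kat2a Flox/Flox and carried either no Mx1-Cre (WT) or 1 copy of it (KO), and donors of both genotypes received pIpC, the interferon inducer that switches Mx1-Cre on in blood and other interferon-responsive tissue, 4 to 6 weeks before marrow was taken. Kat2a encodes a histone acetyltransferase, and the study asked how its loss alters transcription in single leukemia cells. Terminal leukemias were pooled by genotype, 5 WT and 4 KO, and live YFP-positive single cells, YFP marking the oncogene, were sorted, with 6000 cells as the aim for each 10x Genomics 3′ library. Each genotype thus had 1 library, the leukemias inside a pool carry no label, and no test between genotypes was possible. Every interval given is a 95% interval that covers counting error only, exact Poisson for sums and Clopper-Pearson for shares.

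The targeted gene went against the labels. Kat2a had 142 UMIs (unique molecular identifiers, which count captured transcripts), or 12.2 CPM (counts per 1000000 UMIs, interval 10.2 to 14.3), in the library assigned to WT and 759 UMIs, or 95.8 CPM (89.1 to 103), in the library assigned to KO. The 3′ tag lies in the last exon, which an excised allele keeps, so its level does not check the deletion, and the libraries are called the library labelled WT and the library labelled KO throughout. Kept cells had 500 or more detected genes, 3866 of them with 11669427 UMIs in the library labelled WT and 3545 with 7920256 UMIs in the library labelled KO, at medians of 2588.5 and 1884 UMIs per cell. The libraries shared 28 barcodes, 19 of them among kept cells. Markers of myeloid cells were present in both, with 78923 and 76641 CPM for 10 granulocyte genes. In what follows, paired values give the library labelled WT first and the library labelled KO second.

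The proteasome is the protease that degrades proteins tagged with ubiquitin. Its barrel-shaped core particle, the 20S, is built from alpha rings that gate the entrance and beta rings that hold the proteolytic sites. The 19S regulator caps the core, with a base whose ATPases unfold substrates and a lid that removes ubiquitin, while the 11S activators and PA200 open the gate without ubiquitin. In blood cells and in cells exposed to interferon, the catalytic subunits Psmb5, Psmb6 and Psmb7 can be replaced by Psmb8, Psmb9 and Psmb10, which form the immunoproteasome and favour peptides that MHC class I molecules present. Psmb8 and Psmb9 lie beside the peptide transporter genes Tap1 and Tap2 in the MHC region.

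In GENCODE M21 (GRCm38) Psmb8 occupied chr17:34197721-34201454 on the plus strand and Psmb9 chr17:34181987-34187764 on the minus strand, with 9957 bases between their starts. The start of Psmb9 lay 211 bases from that of Tap1, and 212 bases of their exons overlapped on opposite strands. The other catalytic genes were on separate chromosomes, Psmb10 at chr8:105935735-105938444, Psmb5 at chr14:54614119-54618022, Psmb6 at chr11:70525367-70527858 and Psmb7 at chr2:38588036-38644087. Chromosome 11 held 10 of the 50 genes, and chromosomes 2 and 14 held 6 each. RefSeq promoter windows (GRCm38.p6), running from 250 bases before to 50 bases after a transcript start, were at hand for 42 of the 50 genes in 45 windows, and not for Psma8, Psmb1, Psmb2, Psmb7, Psmc3, Psmd3, Psmd7 and Psmg2. The windows of Psmb5, Psmb6, Psmb8 and Psmb9 are shown because the results turn on the exchange between these subunits, each 300 bases long and read 5′ to 3′ on the strand of its gene. Capitals mark a match to TGACNNNGC, the site bound by Nfe2l1, the activator of proteasome genes, in Psmb5 and Psmb6, to TTCNNNGAA, the GAS site found at interferon-responsive genes, in Psmb8, and to the CCAAT box, read on the other strand, in Psmb9. The windows are chr14:54617946-54618245 (minus), chr11:70525107-70525406 (plus), chr17:34197945-34198244 (plus) and chr17:34187281-34187580 (minus), in the order printed. Those of Psmb8 and Psmb9 lie wholly inside the GENCODE spans given above. Their RefSeq transcript starts thus differ from the GENCODE starts used for the distances.
Psmb5: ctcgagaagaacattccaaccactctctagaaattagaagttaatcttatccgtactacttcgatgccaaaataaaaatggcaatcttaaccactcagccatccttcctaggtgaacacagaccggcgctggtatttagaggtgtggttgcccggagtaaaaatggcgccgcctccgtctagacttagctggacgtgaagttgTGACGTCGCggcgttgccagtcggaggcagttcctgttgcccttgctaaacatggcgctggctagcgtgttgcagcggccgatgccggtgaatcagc
Psmb6: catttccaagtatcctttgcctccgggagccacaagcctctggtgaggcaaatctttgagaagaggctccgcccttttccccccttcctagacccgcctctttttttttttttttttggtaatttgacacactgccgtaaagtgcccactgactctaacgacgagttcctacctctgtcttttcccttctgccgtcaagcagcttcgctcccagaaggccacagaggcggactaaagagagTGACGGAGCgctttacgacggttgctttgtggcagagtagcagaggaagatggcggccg
Psmb8: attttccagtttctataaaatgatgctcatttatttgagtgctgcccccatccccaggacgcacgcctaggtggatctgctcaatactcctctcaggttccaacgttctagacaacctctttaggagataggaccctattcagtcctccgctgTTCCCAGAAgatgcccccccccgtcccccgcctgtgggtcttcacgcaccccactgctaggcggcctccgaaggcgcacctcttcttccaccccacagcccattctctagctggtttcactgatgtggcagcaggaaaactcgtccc
Psmb9: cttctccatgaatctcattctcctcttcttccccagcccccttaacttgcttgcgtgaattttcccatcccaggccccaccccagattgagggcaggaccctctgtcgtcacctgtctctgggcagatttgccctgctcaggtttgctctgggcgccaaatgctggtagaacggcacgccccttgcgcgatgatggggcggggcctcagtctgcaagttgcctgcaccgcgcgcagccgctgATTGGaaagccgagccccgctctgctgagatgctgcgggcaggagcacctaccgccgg

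The constitutive pair shown carried the Nfe2l1 letters near the transcript start, at bases -47 to -39 in Psmb5 and -9 to -1 in Psmb6. Positions here are counted from the RefSeq start. Psmb8 carried the GAS letters at -97 to -89, and the window of Psmb10 held none of the motifs searched but CACGTG, the E-box. Across members, TGACNNNGC was found in 6 of 45 windows (13.3%, against 12.4% of all 32851 promoter windows, searched on both strands as for every motif). The motif furthest from its share in all windows was CCGGAAG, the ETS site bound by factors such as Gabpa, in 16 of 45 windows (35.6% against 8.86%), from 15 genes. GAAANNGAA, the core of the interferon-stimulated response element, occurred in 7 windows (15.6% against 8.56%), among them that of Psme1, where it spanned bases 10 to 18 after the start. TTCNNNGAA was in 3 windows (6.67% against 8.30%), CCAAT in 15 (33.3% against 37.4%) and CACGTG in 4 (8.89% against 7.15%). These are descriptions of letters, and no binding was measured here.

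Proteasome transcripts made up a slightly larger share of the library labelled KO. The 50 genes together had 115307 UMIs, or 9881 CPM (9824 to 9938), and 89301 UMIs, or 11275 CPM (11201 to 11349), giving a log2 ratio of 0.19 (0.18 to 0.20). Of the 50 genes, 47 had 100 or more UMIs over both libraries, and 38 of these were above a log2 ratio of 0, or 80.9%, where 49.8% of all 7861 genes that passed were. A sum over a library does not tell more transcripts per cell from another mix of cells, and levels within clusters are given further on. The difference was small for most genes. Size was judged by a limit of 5 to 4 between the libraries, a log2 ratio of 0.32. By this limit 8 genes were higher in the library labelled KO (17.0%, against 17.1% of all genes) and 0 were lower (against 21.6%), so the share past the limit on the high side was that of all genes. The median log2 ratio was 0.16 over the 47 genes and -0.00194 over all genes. Among genes with a UMI in 10% or more of kept cells, 35 of 43 members were above 0 (81.4% against 60.2%), 5 were past the limit on the high side (against 17.5%) and 0 lower (against 12.2%). The intervals of 31 of the 47 genes lay above 0 and that of 1, Psma5, below it. Counting intervals are narrower for abundant genes, and this count was not made over all genes, so it has no background beside it.

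Depth moved with this result. When cells were matched on total UMIs, leaving 2782 per library at medians of 2127.5 and 2120.5, the log2 ratio of the sum was 0.28 and 20 of 47 genes (42.6%) were past the limit on the high side, against 25.5% of all genes. When ribosomal protein and mitochondrial genes were left out of the total, 4 genes were past it (8.51%), against 14.1% of all genes. The members' share thus stood above or below that of all genes according to the setting. Psmb6, Psmg2 and Psmf1 were past the limit in each of the 9 settings of cells and scaling. Other markers differed between the libraries too. Erythroid markers (6 genes) were at 208 and 538 CPM, megakaryocyte markers (4 genes) at 20.8 and 135 CPM, T or NK cell markers (5 genes) at 197 and 319 CPM, S phase genes (8 genes) at 1055 and 1337 CPM and mitosis genes (9 genes) at 837 and 1037 CPM, with each gene of these lists above 0 in both libraries. Basophil or mast cell markers (4 genes, 2 and 1 of them at 0) were at 88.2 and 180.0 CPM and B cell markers (5 genes, 2 and 1 of them at 0) at 54.3 and 79.0 CPM. The T or NK cell list holds Nkg7, which was also a leading gene of the cluster led by Mpo and Elane described further on. That sum is thus not specific to lymphoid cells. The part of these markers in the result was not tested.

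**Figure D1:**
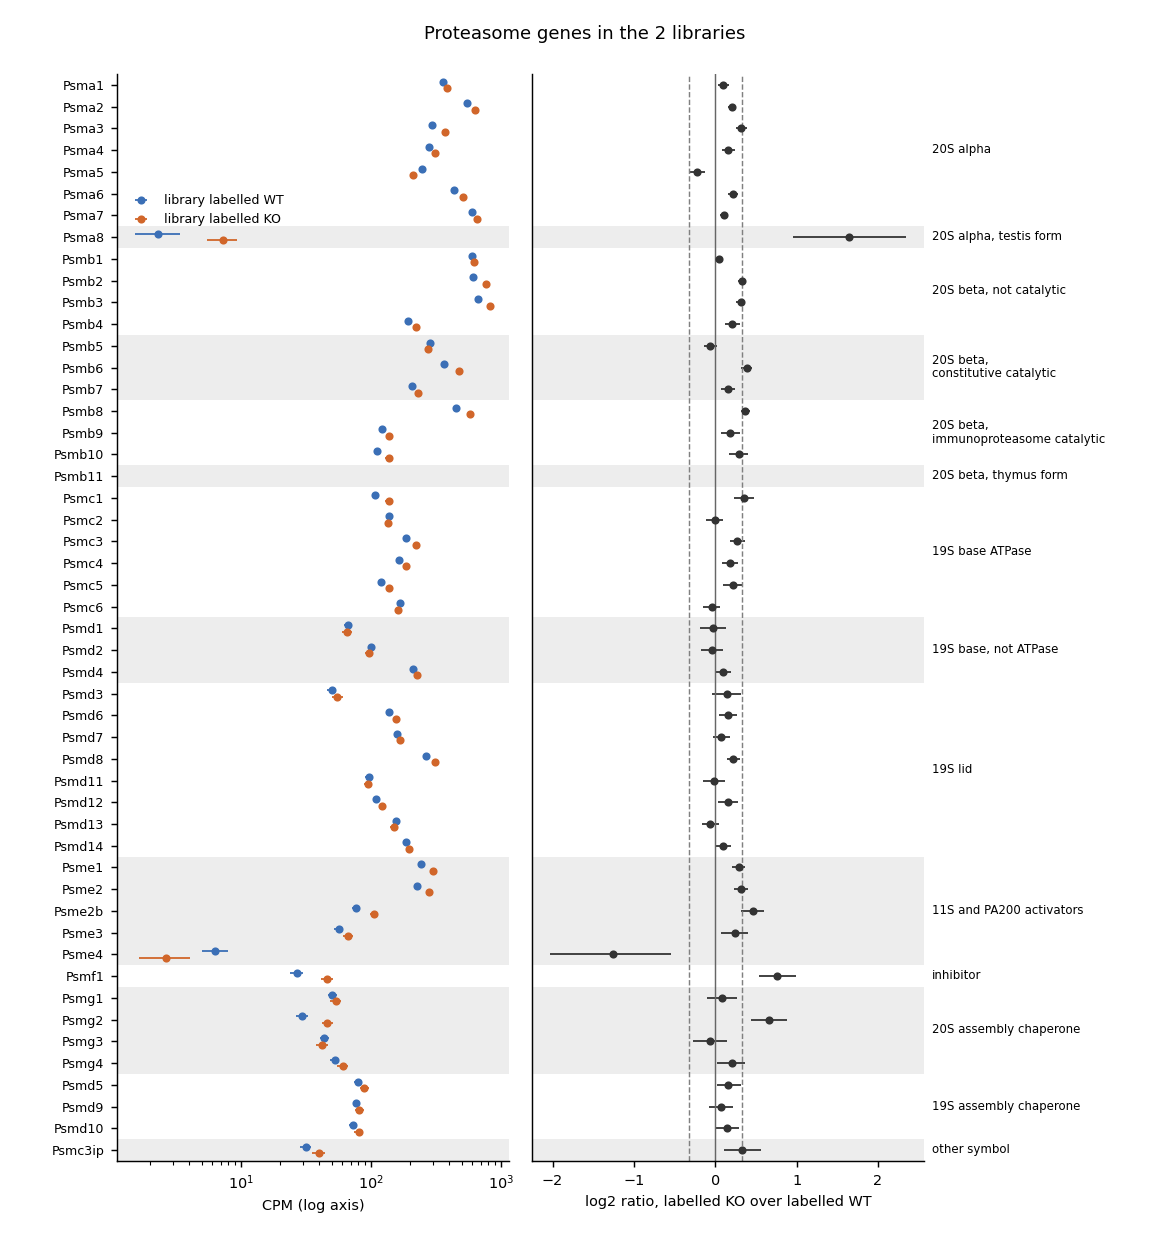
Level of each gene in CPM (left, log axis; blue, library labelled WT; orange, library labelled KO) and log2 ratio of the libraries (right), grouped by role. Bars are 95% counting intervals and dashed lines mark the limit of 0.32 in size; most ratios sit just right of 0, Psmf1 and Psmg2 stand furthest right among genes with 100 or more UMIs, and Psmb11 is not drawn because both libraries had 0 UMIs.

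The alpha ring genes, which shape the outer rings and the gate of the core, were among the most abundant members. Since each UMI tags the 3′ end of 1 transcript, CPM of different genes were set side by side without division by length. Psma7 was highest at 604 CPM (589.7 to 618) and 652 CPM (635 to 670.4), and Psma5 lowest of the 7 ring genes at 246 CPM (237 to 255) and 211 CPM (201 to 222). Psma5 was the lowest ratio of all 47 genes, at -0.22 (-0.31 to -0.13), and the other 6 alpha ring genes were above 0. Among cells with 1000 or more detected genes the ratio of Psma5 was -0.03. Psma3 lay just under the limit at 1.248-fold, with 297 and 371 CPM. The 7 genes together had 2774 and 3078 CPM, giving a log2 ratio of 0.15 (0.13 to 0.17). Psma8, the form made in testis, had 27 and 57 UMIs, or 2.31 CPM (1.52 to 3.37) and 7.20 CPM (5.45 to 9.32), with a log2 ratio of 1.64 (0.95 to 2.35), and was left out of the counts as too low.

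Beta ring genes without a proteolytic site, Psmb1 to Psmb4, had the largest sum of any role for their number, 2066 and 2433 CPM, at a log2 ratio of 0.24 (0.21 to 0.26). Psmb3 was the most abundant of all 50 genes, at 663 CPM (648 to 678) and 822 CPM (802 to 842), with UMIs in 2869 and 2483 kept cells. Psmb2 had 608 and 764 CPM and lay just past the limit at 1.256-fold. Psmb1 was the exception of the 4 at 602 and 624 CPM, giving a log2 ratio of 0.05 with an interval that reached 0. Psmb4 was lowest at 193 and 223 CPM.

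The constitutive catalytic genes did not move together. Psmb6, which carries the caspase-like site, had 368 CPM (357 to 379) and 480.3 CPM (465 to 496), giving a log2 ratio of 0.39 (0.32 to 0.45). Psmb5, which carries the chymotrypsin-like site, had 287 CPM (277 to 297) and 274 CPM (263 to 286), giving a log2 ratio of -0.06 (-0.14 to 0.02). Psmb7, with the trypsin-like site, lay between them at 208 CPM (199.8 to 216) and 232 CPM (221 to 242), giving a log2 ratio of 0.15 (0.07 to 0.24). The intervals of Psmb5 and Psmb6 were apart.

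All 3 immunoproteasome genes were higher in the library labelled KO. Psmb8, the counterpart of Psmb5, had 449 CPM (437 to 462) and 578 CPM (561 to 595), giving a log2 ratio of 0.36 (0.31 to 0.42), and was more abundant than any constitutive catalytic gene in both libraries. Psmb9, the counterpart of Psmb6, had 122 CPM (115 to 128) and 138 CPM (129.9 to 146), giving a log2 ratio of 0.18 (0.07 to 0.30). Psmb10, the counterpart of Psmb7, had 112 CPM (106 to 119) and 137 CPM (129 to 146), giving a log2 ratio of 0.29 (0.17 to 0.40). Of the 3, Psmb8 alone was past the limit. Summed, the 3 immunoproteasome genes had 683 and 853 CPM, 0.32 (0.27 to 0.37), and the 3 constitutive genes 862 and 986 CPM, 0.19 (0.15 to 0.24). Psmb11, the thymus form, had 0 UMIs in both libraries, with exact Poisson upper limits of 0.316 and 0.466 CPM, and the floor of 3 UMIs used for a count of 0 stood at 0.257 and 0.379 CPM.

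Set against its counterpart, each immunoproteasome gene gave a different picture. Psmb8 took 61.0% (60.0 to 62.1) and 67.8% (66.7 to 68.9) of the UMIs it shared with Psmb5. Psmb9 took 24.9% (23.7 to 26.0) and 22.3% (21.2 to 23.5) of those it shared with Psmb6, a difference of -2.54 percentage points. Psmb10 took 35.1% (33.5 to 36.6) and 37.2% (35.4 to 39.0) of those it shared with Psmb7. The immunoproteasome form thus had the majority of UMIs at the chymotrypsin-like site and the minority at the others, in both libraries. The first share depends on the count of Psmb5, whose 3′ end matches a pseudogene at 99.1% identity over 427 bases, so its reads may be undercounted. Over the 6 genes the immunoproteasome share was 44.2% (43.5 to 44.9) and 46.4% (45.6 to 47.2), a difference of 2.16 points (1.07 to 3.26). The share of Psmb9 went the other way from those of Psmb8 and Psmb10 while its own level was higher, since Psmb6 was higher by more.

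Genes of the 19S regulator were less abundant and nearer to 0 in their ratios. The 6 base ATPases, which thread substrates into the core, summed to 880.1 and 984 CPM, giving a log2 ratio of 0.16 (0.12 to 0.20). Psmc3 was highest among them at 185 and 223 CPM. Psmc1 was lowest in the library labelled WT at 108 CPM (102 to 114) and past the limit at 137 CPM (129 to 146) in the library labelled KO, 0.35 (0.23 to 0.47), while Psmc2 had 137 and 136 CPM. The base genes without ATPase activity were Psmd1 and Psmd2, scaffolds, and Psmd4, a ubiquitin receptor, and summed to 379 and 391 CPM, 0.04 (-0.02 to 0.11). Psmd4 was highest at 212 and 228 CPM and Psmd1 lowest at 66.6 and 65.3 CPM. The 8 lid genes summed to 1162 and 1252 CPM, 0.11 (0.07 to 0.15), with 6 above 0 and none past the limit. Psmd8 led the lid at 266 and 309 CPM and Psmd3 was lowest with 584 and 437 UMIs. Psmd14, the enzyme that cuts ubiquitin from substrates, had 186 and 198 CPM. All 17 regulator genes together gave 0.12 (0.09 to 0.14), against 0.19 (0.17 to 0.21) for the 14 constitutive core genes.

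The 11S activator genes were higher in the library labelled KO, and the level of PA200 was too low to be counted. Psme1 and Psme2, the interferon-responsive alpha and beta subunits of the 11S ring, had 244 CPM (235 to 253) and 299 CPM (287 to 311), and 225 CPM (216 to 233) and 279.5 CPM (268 to 291), with log2 ratios of 0.29 (0.21 to 0.37) and 0.32 (0.23 to 0.40). Both stayed just under the limit. Psme2b had 76.4 and 105 CPM, 0.46 (0.32 to 0.60), but its last 500 bases matched those of Psme2 at 99.0% identity, so reads of the pair may be split or lost and both levels are uncertain. Psme3, the nuclear 11S activator, had 56.6 and 66.7 CPM, 0.24 (0.07 to 0.40). Psme4, which encodes PA200, had 74 and 21 UMIs, or 6.34 CPM (4.98 to 7.96) and 2.65 CPM (1.64 to 4.05), giving a log2 ratio of -1.26 (-2.03 to -0.54). It was the lowest ratio of the 49 detected genes and rested on 95 UMIs in all.

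Among the 47 genes with 100 or more UMIs, the ratios furthest from 0 were those of an inhibitor and an assembly factor, both of low level. Psmf1, known as PI31, which inhibits the purified core, had 314 and 362 UMIs, or 26.9 CPM (24.0 to 30.1) and 45.7 CPM (41.1 to 50.7), giving a log2 ratio of 0.76 (0.54 to 0.99). Psmg2, which pairs with Psmg1 to assemble alpha rings, had 29.3 CPM (26.3 to 32.6) and 46.3 CPM (41.7 to 51.3), 0.66 (0.44 to 0.88). Its partner Psmg1 was nearly level at 50.5 and 53.5 CPM. Of the other chaperones of the core, Psmg4 was highest at 52.8 and 60.5 CPM, and Psmg3 had 43.9 and 41.9 CPM. For Psmg2, 1 cell of the library labelled KO held 32 UMIs, 8.72% of that gene's UMIs there. The 3 chaperones of the 19S base were close in level, from 79.5 and 89.1 CPM for Psmd5 down to 72.9 and 80.4 CPM for Psmd10. Psmc3ip, whose symbol fits the rule but whose product acts in meiotic recombination, had 31.4 and 39.6 CPM, 0.33 (0.11 to 0.56).

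Reads of some members could not be assigned without doubt. Over the last 500 bases of their transcripts, 7 of 50 genes had a match of 90 or more bases at 98% or higher identity in another gene. For Psma3, Psma5, Psmb5 and Psmd11 these were processed pseudogenes outside the count table, for Psmd1 the overlapping gene Gm21972, and Psme2 and Psme2b matched each other. On the same strand, Psmg3 also shared 280 exon bases with Gm26938 and Psme2b 41 with 9930111J21Rik1, both in the count table. Levels of these genes, Psma5, Psmb5 and Psmg3 among them, are uncertain to that extent.

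Genes that work with the proteasome were read from lists. The cofactor list held 15 symbols, with Shfm1 also entered as Sem1 and AI314180 as Ecm29. Of these symbols, 12 were in the table and passed, with a median log2 ratio of 0.07. By the limit 2 were higher and 2 lower, where 17.1% of all genes were higher and 21.6% lower. Adrm1, a ubiquitin receptor of the base, had 105 and 148 CPM (0.49), and Pomp, the maturation factor of the core, 345 and 449.7 CPM (0.38). Uchl5, the deubiquitinase that Adrm1 recruits, had 168 and 196 CPM (0.22). Lower were AI314180, the mouse gene of the adaptor ECM29, at 20.3 and 8.46 CPM (-1.26), Zfand5, a proteasome activator, at 97.9 and 68.8 CPM (-0.51), and, within the limit, Shfm1, the small lid subunit, at 1339 and 1115 CPM (-0.26). Nfe2l1, the activator of proteasome genes, had 130 and 93 UMIs and a log2 ratio of 0.08 (-0.32 to 0.47).

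Ubiquitin itself is encoded by several genes, and these were split. Of 15 genes of ubiquitin supply and shuttles, 13 passed, 3 were higher, 1 was lower and the median was 0.14. By the same limit 17.1% of all genes were higher and 21.6% lower. The polyubiquitin gene Ubb was higher, at 6348 and 9547 CPM (0.59). Rps27a, which encodes ubiquitin fused to a ribosomal protein, was lower at 2956 and 2259.9 CPM (-0.39). Vcp, the segregase that extracts substrates, was at 168 and 145 CPM (-0.21), and Uba1, the activating enzyme, at 46.4 and 41.7 CPM (-0.16).

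Antigen presentation genes were further apart than the immunoproteasome. Of 17 genes of antigen processing and interferon response, 13 passed, with a median log2 ratio of 0.38. Past the limit were 8 on the high side and 1 on the low side, against 17.1% and 21.6% of all genes. The MHC class I heavy chain H2-K1 had 187 and 319.6 CPM (0.77), its light chain B2m 1457 and 2312 CPM (0.67), and the peptide-trimming enzyme Erap1 12.4 and 23.0 CPM (0.89). Tap1, the neighbour of Psmb9, had 20.8 and 27.1 CPM (0.38), while Tap2 had 90.7 and 85.6 CPM (-0.08). Irf1, a transcription factor of the interferon response, did not share this direction, at 13.9 and 9.85 CPM (-0.50).

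Cells were grouped by k-means into 12 clusters from variable genes without any member or listed partner, so the groups were not defined by the proteasome. Clusters 2 (led by Ltf and Mmp9) and 11 (led by BC100530 and Gm5483) were granulocyte-like, and clusters 7, 8 and 12 monocyte or macrophage-like by their markers. Cluster 3, led by Ly6e and H2-DMa, is given by number: its monocyte or macrophage markers were at 1743 and 2935 CPM, against 1528 and 1477 CPM in the whole libraries, and its stem or progenitor markers, at 517 and 602 CPM, were the highest of the 12 clusters. Clusters 4 and 5 were led by genes of DNA synthesis and mitosis and also held granulocyte markers at 188037 and 182999 CPM (cluster 4) and 162182 and 154612 CPM (cluster 5). Cluster 6 was led by Mpo and Elane, genes of primary granules, and cluster 10 by C1qbp, Srm and Hspd1, genes of mitochondria and growth. The clusters were unevenly filled, cluster 3 holding 4.01% and 15.6% of kept cells and cluster 2 holding 14.9% and 6.38%.

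Proteasome level differed more between clusters than between libraries. It was lowest in granulocyte-like cluster 2, at 6286 CPM (6140.5 to 6434) and 6938 CPM (6671 to 7213), and highest in cluster 10, at 13126 and 15379 CPM, a span of 2.09-fold and 2.22-fold. Of the 43 members with UMIs in 10% of cells, 23 were highest in cluster 10 in each library, and 24 and 22 were lowest in cluster 2. The same counts were not made over all genes, so these are not shown to be particular to the members. Granulocyte marker genes took 24.8% and 23.8% of all UMIs in cluster 2, which lowers the share left for other genes. With those UMIs left out of the total, a scaling chosen after the values were seen, the span was 1.57-fold and 1.69-fold between the same clusters. Cluster 10 was also the deepest, with medians of 4950.0 and 4292.5 UMIs per cell, and across the 12 clusters core level and median depth had a Pearson r of 0.79 and 0.57. Core and regulator levels ran in parallel over the 12 clusters, at r = 0.96 in both libraries, and core level ran opposite to granulocyte markers, at r = -0.78 and -0.84. Clusters of a library share its preparation and the scaling to total UMIs, so these correlations are descriptions.

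Within clusters the libraries differed in the same direction as in the whole. Summed proteasome level was higher in the library labelled KO in 12 of 12 clusters, with log2 ratios from 0.06 in cluster 11 to 0.28 in cluster 7. The interval of cluster 11 reached from -0.01 to 0.13, and those of the other 11 lay above 0. With 8 and 16 clusters the ratio was above 0 in 8 of 8 and 16 of 16.

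**Figure D2:**
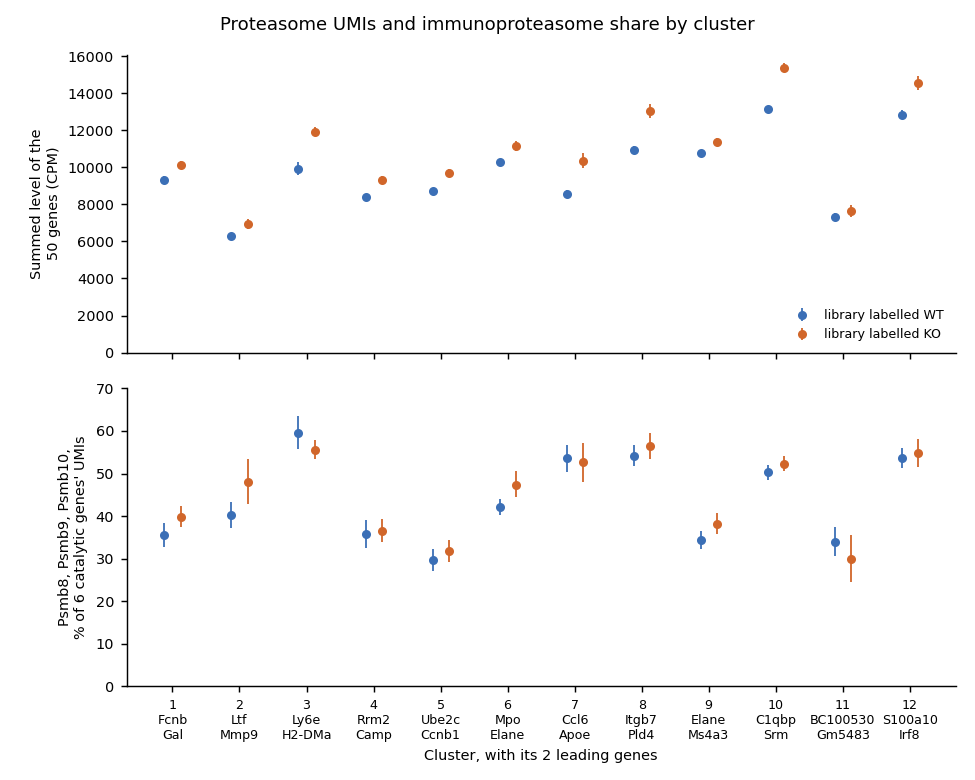
Summed CPM of the 50 genes (top) and the share of Psmb8, Psmb9 and Psmb10 among UMIs of the 6 catalytic genes (bottom) in 12 clusters, each named by its leading genes, for the library labelled WT (blue) and the library labelled KO (orange), with 95% counting intervals. The sum runs from cluster 2 to cluster 10 in both libraries, and the share is above 50% in clusters 3, 7, 8, 10 and 12 and under it in the others.

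The immunoproteasome varied more between clusters than the subunits it replaces. Its share of catalytic UMIs ran from 29.6% in cluster 5, led by mitotic genes, to 59.6% in cluster 3 in the library labelled WT, and from 29.9% in cluster 11 to 56.5% in cluster 8 in the library labelled KO. Psmb10 spanned 6.67-fold and 9.51-fold, from 32.7 CPM in cluster 4 to 218 CPM in cluster 3 and from 32.5 CPM in cluster 11 to 309 CPM in cluster 8. Psmb8 spanned 4.34-fold and 5.42-fold, from 191 to 828 CPM and from 191 to 1038 CPM. Psmb9 moved less, by 2.11-fold and 2.65-fold, which is close to the 1.80-fold and 2.82-fold of Psmb6 and the 2.53-fold and 2.70-fold of Psmb5. High levels of both Psmb8 and Psmb10 were found in clusters 3, 8, 10 and 12, and low levels in granulocyte-like clusters and in clusters 4 and 5, where granulocyte marker UMIs were also many. Cluster 7 had Psmb10 at 203 and 206 CPM, above the 162 and 198 CPM of cluster 10. Its Psmb8, at 485 and 627 CPM, was nearer to the 449 and 578 CPM of the whole libraries. Over the 12 clusters the immunoproteasome sum had r = -0.81 and -0.85 with granulocyte markers and -0.16 and -0.09 with mitosis genes, and cluster 12, with mitosis genes at 1949 and 2244 CPM, had shares of 53.7% and 54.8%. Psme1 and Psme2 were likewise low in clusters 4 and 5, where Psme2 had 107 and 113 CPM in the library labelled WT and 196 and 140.1 CPM in the library labelled KO. The immunoproteasome sum was higher in the library labelled KO in 11 of 12 clusters, from -0.23 in cluster 11 to 0.47 in cluster 5, while its share was higher in 9 of 12, in 7 of 8 when 8 clusters were made and in 9 of 16 when 16 were.

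Levels of the antigen processing and interferon list, which were kept out of the clustering, ran closest with Psmb10. Over the 12 clusters Psmb10 and the list had r = 0.77 and 0.96, Psmb8 0.52 and 0.86, and Psmb9 0.20 and 0.54. For the sum of Psmb5, Psmb6 and Psmb7 the values were -0.07 and 0.46. The list was lowest in cluster 5 (2114 CPM) and highest in cluster 7 (6500.4 CPM) in the library labelled WT, and lowest in cluster 11 (2788 CPM) and highest in cluster 8 (8313 CPM) in the library labelled KO.

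**Figure D3:**
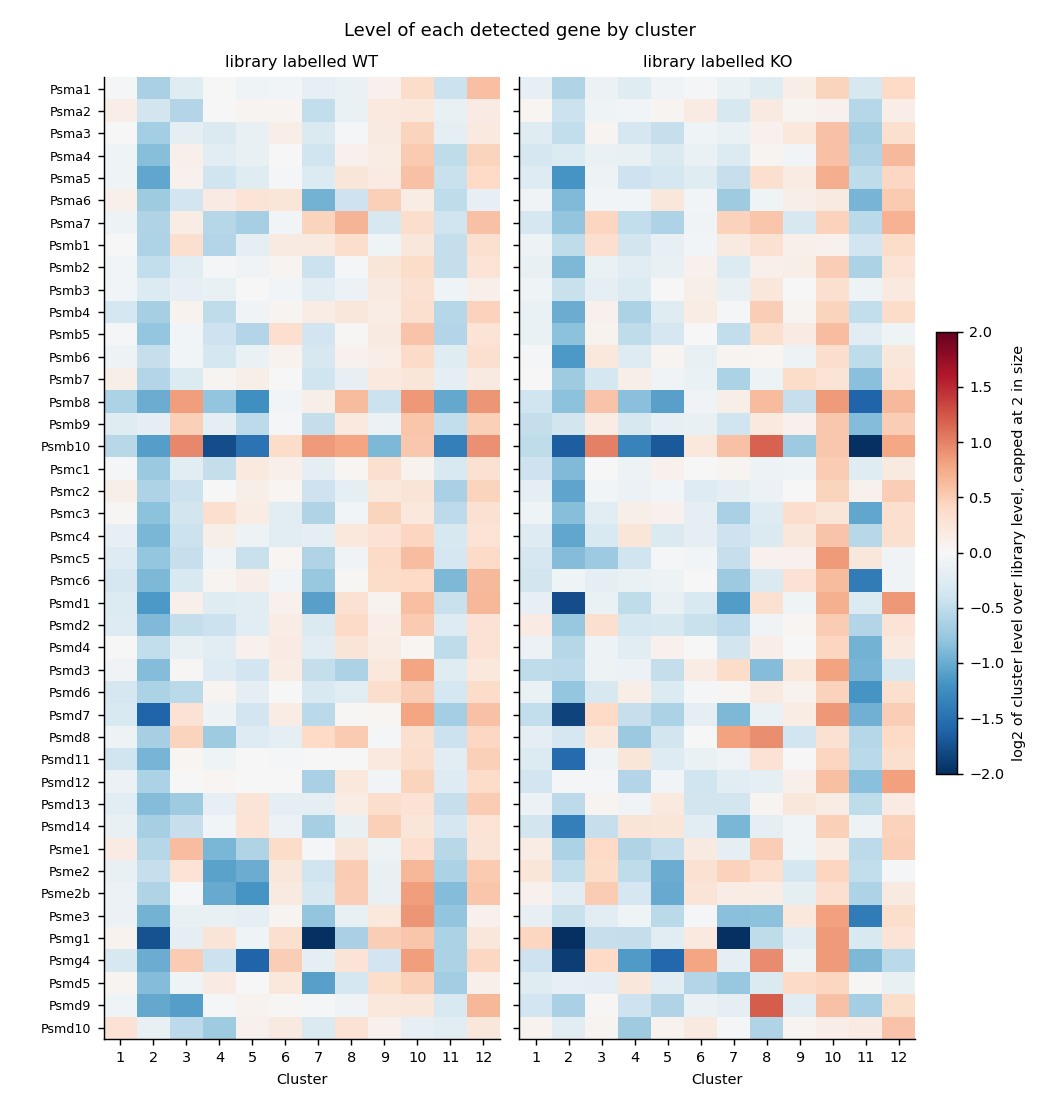
Level of 43 genes in each of 12 clusters relative to their level in the whole library, as log2, for the library labelled WT (left) and the library labelled KO (right). Red is higher and blue lower; column 2 is blue and column 10 red for most genes, and the rows of Psmb8 and Psmb10 show the strongest contrast between clusters.

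Cells were compared at equal depth after thinning to 1000 UMIs, which left 3800 and 3351 cells. A cell then held a mean of 9.19 and 10.8 UMIs of the 50 genes, with medians of 9 and 10 and a range of 0 to 26 and 0 to 35. The variance over the mean was 1.84 and 1.99. No UMI of any member was left in 7 and 2 cells. The 3 immunoproteasome genes were without a UMI in 58.1% and 51.5% of thinned cells and the 3 constitutive catalytic genes in 48.6% and 44.9%. At least 1 UMI of both sets was found in 22.1% and 27.6% of cells, close to the 21.5% and 26.7% that the product of the single shares gives. Since proteasomes are made in every nucleated cell, no cell type that should lack these genes was at hand to measure background from free RNA.

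**Figure D4:**
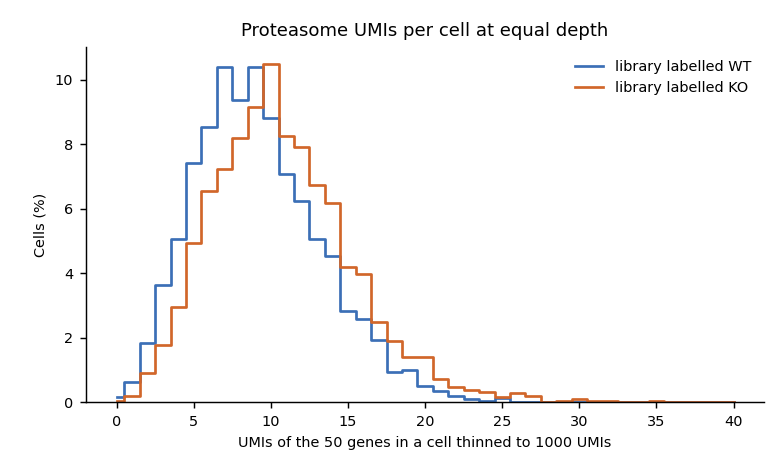
Percent of cells (vertical) with each number of UMIs of the 50 genes (horizontal) after every cell was thinned to 1000 UMIs, for the library labelled WT (blue, 3800 cells) and the library labelled KO (orange, 3351 cells). The orange curve lies to the right, with medians of 10 and 9, and the curves overlap over most of their range.

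Variation from cell to cell of single members, which the study compared between genotypes, depended on the measure at equal depth. The variance over the mean was higher in the library labelled KO for all of the 43 members but Psmc5, Psmd2 and Psmd1. It was 1.24 and 1.77 for Psmb6 and 1.16 and 1.14 for Psmd1. This measure was not computed over all genes, nor without the highest cells. The coefficient of variation (CV, SD over mean) had a median log2 ratio of 0.00568 over 43 members, with 22 above 0, and 0.0199 over all 2737 genes with UMIs in 10% of cells, of which 54.5% were above 0. Without the 10 highest cells of each gene, 12 of 43 members were above 0, against 48.9% of all genes. Without thinning, at median depths of 2588.5 and 1884 UMIs per cell, the medians were 0.238 and 0.212. At few UMIs per cell the CV falls as the mean rises, so its ratio also moves with level. After thinning the median log2 ratio of level was 0.24 over 47 members, against 0.00 over all genes. The part of level in the CV ratios was not tested. The largest ratio of CV was that of Psmd9, a chaperone of the 19S base, with CVs of 4.14 and 7.19 and a log2 ratio of 0.80. It rested on few cells. The fullest cell held 16 and 36 UMIs, and without the 10 highest cells of each library the log2 ratio was 0.03. For the lid genes Psmd13 and Psmd8 the log2 ratio of CV was 0.35 and 0.23, and for the assembly chaperone Psmg1 it was 0.26. Without those cells the values were 0.10, -0.01 and 0.03. Psme2b had a lower CV in the library labelled KO, 3.95 and 3.07, giving a log2 ratio of -0.36 that was -0.38 without the 10 highest cells. Its mean was higher there, at 0.0637 and 0.113 UMIs per thinned cell, with a UMI in 6.18% and 10.4% of them. Its variance over the mean was 0.994 and 1.07, so by that measure its variation was not lower.

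**Figure D5:**
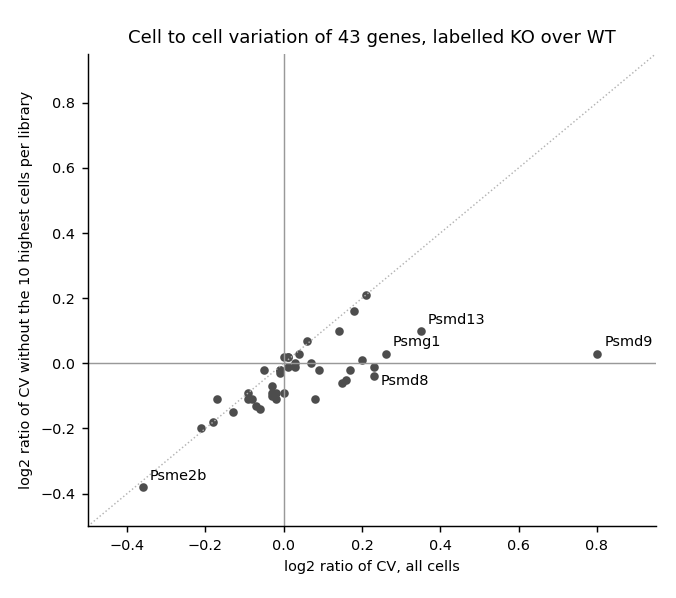
log2 ratio of the CV of 43 genes, library labelled KO over library labelled WT, after thinning, with all cells (horizontal) and without the 10 highest cells of each gene and library (vertical), the dotted line marking equal values. The 5 genes with the largest ratios are named; Psmd9 lies at 0.80 on the horizontal and 0.03 on the vertical axis, and Psme2b stays on the line.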

How the data were processed

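The 2 samples were the pools labelled Kat2a-WT and Kat2a-KO. The authors ran Cell Ranger (version 1.3.1 per the submitters' processing notes, which name mm10, while the study's methods give another version) and deposited 1 matrix of raw UMI counts with 27998 genes, not normalized. Barcodes ending in 1 were taken as KO and in 2 as WT, as in the study's published code; the labels do not state this. Cells under 500 detected genes were left out, and doublets were not removed. Counts were summed per library and scaled per 1000000 UMIs. Ratios carry conditional exact binomial intervals. Genes with 100 or more UMIs over both libraries were counted, and a log2 ratio of 0.32 in size served as the limit. Clusters came from k-means (12 clusters, 10 starts, 20 principal components, 780 variable genes). A cluster was named where at least 3 markers were raised 1.5-fold and at least 2 stood among its 10 leading genes, a scoring set with cluster values known. Cluster 3 met it and was left unnamed for its leading genes and stem or progenitor markers. Thinning drew 1000 UMIs per cell without replacement. No column of the matrix was left unmatched.

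Members, lists and rules were chosen with earlier results of these data known. Named with values were the 6 catalytic genes, the activators, the inhibitor, members past the limit, the highest and lowest of each role, the 5 largest CV ratios and, per partner list, the 3 largest ratios in each direction, of which some genes are not reported here. Matched by Ensembl identifier, all 50 members had positions in GENCODE M21. Promoter windows were matched by symbol. Similar 3′ ends were sought with blastn 2.17.0. Python 3.11.15, numpy 2.4.6, scipy 1.17.1 and scikit-learn 1.9.0 were used, and the ratio, interval and thinning steps were tested on simulated data. Between 775 and 11944 UMIs per kept cell were available, so that single genes rest on few UMIs per cell. UMIs collapse PCR copies, and intervals cover counting error only, not differences between leukemias or preparations. Alternatives changed the cells kept, the depth, the scaling, the filter, the fold limit and the number of clusters.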

Additional observations from a re-analysis of the deposited data

Results flagged for a closer look

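The cells left out for having fewer than 500 detected genes also carried proteasome transcripts, which no comparison above uses. The library labelled WT had 203 of them, with 5706 CPM (5397 to 6028) for the 50 genes, and the library labelled KO had 695, with 7446 CPM (7240.4 to 7657), giving a log2 ratio of 0.38 (0.29 to 0.47). Both values are under those of kept cells (9881 and 11275 CPM). Granulocyte markers stood at 249515 and 193889 CPM in these cells, against 78923 and 76641 CPM in kept cells, and their part in the difference was not tested. The immunoproteasome share of catalytic UMIs was 47.0% (39.5 to 54.5) and 47.4% (43.9 to 50.9).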

How the results depend on the processing

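No paired analysis was possible because each genotype had 1 library, and no library could be left out for the same reason. The log2 ratio of the summed members (0.19) kept its direction in each setting. It was 0.16 with every deposited cell, 0.22 with cells of 1000 or more genes, 0.23 after thinning, 0.28 in depth-matched cells, 0.15 without ribosomal protein and mitochondrial genes in the total, 0.18 without the 5% of cells with most UMIs and 0.17 with clusters reweighted to equal shares. In the first 5 of these settings, in that order, the constitutive core gave 0.16, 0.22, 0.21, 0.27 and 0.14, and the 19S regulator 0.09, 0.18, 0.15, 0.24 and 0.07, with 0.08 for the regulator without the deepest cells. The immunoproteasome ratio was 0.39 after thinning and 0.37 in depth-matched cells. The median over members was 0.30 in depth-matched cells. The count of members past the limit on the high side (8) was 5 with every cell (10.6% of members, under the share of all genes), 16 after thinning (34.0%, against 23.1% of all genes), 20 in depth-matched cells (42.6% against 25.5%), 4 without ribosomal protein and mitochondrial genes (8.51% against 14.1%) and 2 at a limit of 1.5-fold (4.26% against 5.42%), and the count lower (0) was 1, Psme4, with no filter. The median log2 ratio of CV (0.00568) was 0.238 on every UMI, 0.0256 at 1500 UMIs and -0.0196, the opposite sign, without the 10 highest cells of each gene. The span of proteasome level over clusters (2.09-fold and 2.22-fold) was 1.57-fold and 1.69-fold without granulocyte marker UMIs in the total. Of 47 members, 36 kept 1 sign in each of the 9 settings of cells and scaling. Depth limits what can be read for Psma8, Psme4 and Psmb11.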

Other observations

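Some cells held many UMIs of 1 member and rarely of a second. Entries with 10 or more UMIs that were also 10 or more times the library mean at that cell's depth numbered 64 in the library labelled WT, in 64 cells and 30 genes, and 96 in the library labelled KO, in 95 cells and 37 genes. Only 1 of these cells, in the library labelled KO, had more than 1 such entry. Entries this few among 3866 and 3545 kept cells would seldom share a cell if placed at random. They held 0.989% and 1.98% of all member UMIs. The fullest was Psmb3 with 39 UMIs in a cell of 2424 UMIs, where 1.99 would be the library mean, and Psmd9 had 36 UMIs in a cell of 1414 UMIs, where 0.115 would be. Median depth of these cells was 3573.5 and 2061.5 UMIs, above the 2588.5 and 1884 of all kept cells. Among genes with UMIs in 10% of a library's cells, 29 of 44 members (65.9%) and 33 of 40 (82.5%) had such a cell, against 50.8% and 59.8% of all genes so detected. Abundant genes reach 10 UMIs in a cell more easily, and the shares of members and of all genes were not matched on level. The cells were picked for these values, which are given as a description.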
